A study of Homo sapiens with 2 samples.

Results

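ABC transporters were examined in a pair of stable populations of Panc1, a line of human pancreatic cancer cells that arose in the ducts. RNA was read on Affymetrix arrays, where a probe set, a group of short probes, gives the signal of a transcript. Members were chosen by name: every probe set whose platform annotation gives exactly 1 gene symbol made of ABC, a letter from A to G and a number. The rule took 96 of 54675 probe sets, which belong to 42 of 19775 named genes. It left out 3 pseudogene symbols ending in P or P1 and 2 probe sets with several symbols. ABCC13, which RefSeq lists as a transcribed pseudogene, carries a symbol of the member form and was kept. ABCA10 and ABCC6 were not analysed here. The groups were Panc1/syk-wt, a population transfected with wild-type SYK, and Panc1/mock, a population carrying the vector alone. Both were held under hygromycin, and the labels do not say whether either derives from 1 clone. The series title calls the mock cells drug-resistant, without naming a drug. Each group had 1 array, so there is no replicate error, no p-value is given, and the effect of the array or of the RNA preparation cannot be told apart from that of the population.

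ABC proteins share an ATP-binding cassette, a domain that binds and hydrolyses ATP. In most subfamilies the cassette drives movement of a substrate across a membrane, from lipids and bile salts to haem, peptides and drugs, and some members lower the drug content of tumour cells by pumping drugs out. ABCE and ABCF proteins carry cassettes but no membrane domain, and act on ribosomes. As background, SYK is a non-receptor tyrosine kinase known mainly from immune receptor signalling.

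Signals were RMA intensities on the log2 scale, taken from the deposited table, and differences are syk-wt minus mock. The array medians were 4.24 (syk-wt) and 4.26 (mock), and the arrays correlated at r = 0.98 across probe sets, which are not independent replicates. SYK itself gave no clear check of the labels: its 4 probe sets read 2.98 to 4.73 on the syk-wt array and 3.07 to 4.27 on the mock array, with differences from -0.27 to 0.46. All of these values lay below 4.77, the highest signal of 27 control probe sets against bacterial transcripts, a level used here as a floor for dim signal. Directions therefore rest on the labels. ACTB control probe sets, which compare the ends of the transcript, gave more 3' than 5' signal, by 2.37 on the syk-wt array and by 1.95 on the mock array. For GAPDH the same comparison gave 0.32 on the syk-wt array and 0.19 on the mock array. The shift between arrays was thus 0.42 for ACTB and 0.13 for GAPDH. Such shifts run along with every difference below, and their part in them was not tested. Epithelial keratins KRT7, KRT8, KRT18 and KRT19 and the adhesion molecule EPCAM were all above the floor on both arrays, as were the mesenchymal genes VIM, FN1 and CDH2. Several of these markers differed between the arrays: KRT19 was 2.72-fold lower (9.44 on the syk-wt array and 10.88 on the mock array), although its other probe set past the filter differed by -0.37. KRT8 differed by -0.76, VIM by -0.66 and KRT7 by -0.49, and FN1 was 2.29-fold higher (6.32 on the syk-wt array and 5.12 on the mock array). The other KRT7 probe set past the filter differed by 0.16. KRT18 differed by -0.23, EPCAM by 0.30 and CDH2 by 0.37, so neither marker list moved in 1 direction. The part of these marker differences in the values below was not tested. Markers of leukocytes (3 of 5 with a probe set), endothelium (3 of 3), fibroblasts (4 of 4), acinar cells (3 of 3) and endocrine cells (3 of 3) were at or below it on both.

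Of the 42 ABC genes, 23 passed a brightness filter, a mean over both arrays at or above 4.25, which is the 50th percentile of all probe sets. Over the whole series, 12814 of 19775 named genes passed it. Each gene was read by its probe set with the highest mean. The other 19 ABC genes lay at or below the floor on both arrays, between 2.40 and 4.16 on the syk-wt array and between 2.40 and 4.40 on the mock array. Their differences ran from -0.35 to 0.61, with a median of 0.08, and no fold is given for them. Not past the filter were 5 of 11 ABCA genes, 4 of 8 ABCB genes, 5 of 11 ABCC genes, 1 of 3 ABCD genes and 4 of 5 ABCG genes. The single ABCE gene and all 3 ABCF genes passed it. ABCB8 and ABCC8 passed the filter but stayed at or below the floor on both arrays.

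The DNA before the start sites, which the member rule did not use, was described for members past the filter and for the others. Windows of 250 bases upstream of the start were taken from RefSeq (GRCh38.p14) for the 33 members in the promoter table, with the first listed start where a gene had several. A GC box (GGGCGG on either strand), a motif bound by Sp-family factors, was found in 15 of 19 members past the filter (78.9%) and in 3 of 14 not past it (21.4%), against 42.3% of 27305 promoters. The median GC content was 66.4% for members past the filter and 46.2% for the others, against 58.0% for all promoters. A CCAAT motif was found in 4 of the 19 and 2 of the 14 (33.0% of all promoters), the E-box CACGTG in 3 and 1 (6.49%), and TATAAA in 2 and 2 (11.1%), each searched on both strands with overlapping copies counted apart. The share over all promoters was not split by the filter. Whether the contrast between members is particular to ABC genes, or is shared by all genes past and not past the filter, was not tested. ABCA4, ABCC1, ABCC3 and ABCC8 passed the filter but had no window. Such matches describe letters in a window and show no binding. The 4 windows below are ABCB10, the gene with the largest difference, ABCF1 from the group that was higher throughout, and the drug pumps ABCC5, past the filter, and ABCC2, not past it. Each runs 5′ to 3′ along its gene, and capitals mark any match to the 4 motifs.
ABCB10 (chr1:229558708-229558957, minus strand): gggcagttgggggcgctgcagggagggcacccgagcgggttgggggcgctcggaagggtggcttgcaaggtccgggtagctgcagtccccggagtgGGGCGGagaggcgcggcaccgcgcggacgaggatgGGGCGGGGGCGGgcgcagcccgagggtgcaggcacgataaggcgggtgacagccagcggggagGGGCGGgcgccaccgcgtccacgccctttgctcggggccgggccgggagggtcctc
ABCF1 (chr6:30571192-30571441, plus strand): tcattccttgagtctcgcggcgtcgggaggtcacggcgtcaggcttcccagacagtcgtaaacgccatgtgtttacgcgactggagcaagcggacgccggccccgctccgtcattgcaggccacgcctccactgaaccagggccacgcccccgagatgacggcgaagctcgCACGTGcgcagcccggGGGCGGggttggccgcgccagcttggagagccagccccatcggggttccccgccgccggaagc
ABCC5 (chr3:184017885-184018134, minus strand): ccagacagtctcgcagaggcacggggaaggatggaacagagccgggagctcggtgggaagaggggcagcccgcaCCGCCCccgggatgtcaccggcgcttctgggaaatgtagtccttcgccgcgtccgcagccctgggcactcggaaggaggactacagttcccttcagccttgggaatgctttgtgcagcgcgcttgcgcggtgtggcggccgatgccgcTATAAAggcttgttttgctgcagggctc
ABCC2 (chr10:99782390-99782639, plus strand): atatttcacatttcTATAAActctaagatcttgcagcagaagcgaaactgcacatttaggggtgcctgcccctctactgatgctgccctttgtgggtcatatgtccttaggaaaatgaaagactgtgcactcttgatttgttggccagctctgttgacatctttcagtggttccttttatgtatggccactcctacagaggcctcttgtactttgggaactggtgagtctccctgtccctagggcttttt
ABCB10 held 4 GC boxes in a window with 77.2% GC. ABCF1 held 1 GC box and 1 E-box (69.6% GC), ABCC5 held 1 GC box and 1 TATAAA (64.8% GC), and ABCC2 held 1 TATAAA and no GC box (45.6% GC).

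Across the 23 ABC genes past the filter, 13 were below 0 and 10 above (16 and 7 with the mean over probe sets), with a median difference of -0.06, against 0.01 over all 12814 genes past it. At least 2-fold differences were seen in 1 ABC gene (4.35%), against 7.26% of all genes. That gene, ABCB10, was lower, as were 3.65% of all genes, and 0 ABC genes were at least 2-fold higher, against 3.61%. At a threshold of 1.5-fold, 4 ABC genes were lower (17.4%, against 10.5% of all genes) and 1 was higher (4.35%, against 12.2%). Both directions together gave 5 of 23 (21.7%), close to the 22.7% of all genes. ABCB10 stood just past 2-fold at -1.04 and ABCC1 just short of it at -0.89. At 1.5-fold, a log2 value of 0.585, ABCA3 stood past the line at -0.67 and ABCC3 just short at 0.581. By function, the 4 ABCE and ABCF genes were all above 0, while among the 19 genes of the other subfamilies 13 were below 0, with a median of -0.16.

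**Figure D1:**
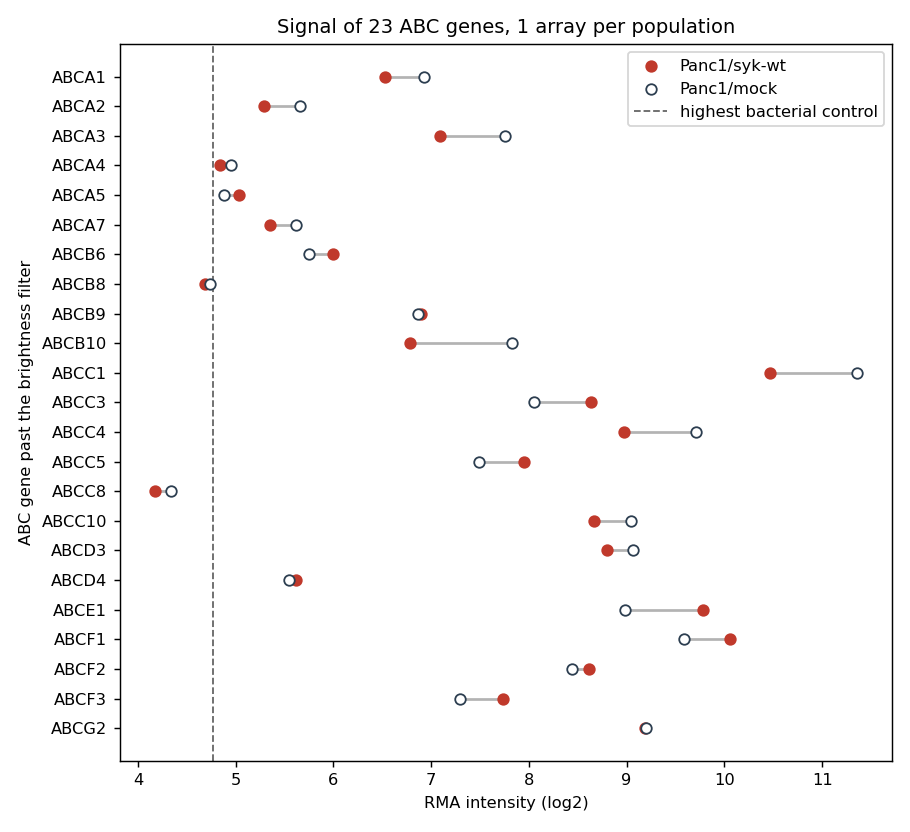
RMA intensity (log2, horizontal axis) of the 23 ABC genes past the filter, with 1 point for the Panc1/syk-wt array (filled) and 1 for the Panc1/mock array (open), and the highest bacterial control (4.77) as a dashed line. Points of 1 gene may be compared, but levels of different genes may not, since probe sets differ in brightness. ABCB10 and ABCC1 have the widest gaps toward mock, and ABCE1 the widest toward syk-wt.

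Among the known drug pumps, a list of 11 genes of which 6 passed the filter, 4 were below 0 and 2 above, with a median of -0.20. None reached 2-fold. ABCC1 (MRP1), which exports glutathione conjugates and several anticancer drugs, read 10.47 on the syk-wt array and 11.36 on the mock array, 1.85-fold lower. Its other probe set gave a larger difference, -1.01, with 7.02 on the syk-wt array and 8.03 on the mock array. Both readings of ABCC1 were therefore lower in the same direction, and 4.77% of all genes past the filter had a lower difference than its brighter probe set.

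ABCC4 (MRP4), an exporter of cyclic nucleotides and nucleoside analogues, read 8.98 on the syk-wt array and 9.71 on the mock array, 1.66-fold lower. Its probe sets did not move alike: the other 2 past the filter differed by -0.12 and -0.05, and a dim one by 0.29. The mean over all 4 probe sets was -0.16, so the size of the ABCC4 difference rests on its brightest probe set. ABCC10 (MRP7), which confers resistance to taxanes, read 8.67 on the syk-wt array and 9.05 on the mock array, a difference of -0.38. Its second probe set differed by -0.07.

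ABCC3 and ABCC5 went the other way. ABCC3 (MRP3), an exporter of glucuronides and bile salts, read 8.63 on the syk-wt array and 8.05 on the mock array. Of its 5 probe sets, 4 were above 0, with differences of 0.58, 0.56, 0.41 and 0.06, and the dimmest, at 4.89 on the syk-wt array and 5.07 on the mock array, was at -0.18. ABCC5 (MRP5), an exporter of nucleotide analogues and cyclic nucleotides, read 7.95 on the syk-wt array and 7.49 on the mock array, 1.37-fold higher, and its other probe sets differed by 0.39 and 0.15. By brightest probe set, the MRP-type pumps ABCC1, ABCC4 and ABCC10 were thus lower, and ABCC3 and ABCC5 higher. ABCC1 and ABCC4 were lower by more than 1.5-fold, against 10.5% of all genes, ABCC4 in its brightest probe set alone. No MRP-type pump past the filter was higher by that much, against 12.2% of all genes. With median centring ABCC3 was, at 0.60.

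ABCG2, the breast cancer resistance protein, differed by -0.02, with 9.18 on the syk-wt array and 9.20 on the mock array from its 1 probe set. ABCB1, the P-glycoprotein that pumps out many chemotherapy drugs, did not pass the filter: its 2 probe sets read 3.69 and 2.92 on the syk-wt array, against 3.29 and 3.05 on the mock array. Another probe set, annotated to ABCB4 and ABCB1 together and so no member, read 3.79 on the syk-wt array and 3.65 on the mock array. The bacterial controls had medians of 2.91 on the syk-wt array and 2.80 on the mock array. All of these ABCB1 readings lie below the floor, so ABCB1 signal did not exceed the brightest control on either array. The same held for the canalicular exporter ABCC2 (MRP2), at 3.41 on the syk-wt array and 3.32 on the mock array, for ABCB5, at 3.92 on the syk-wt array and 4.01 on the mock array, and for ABCC11, at 4.14 on the syk-wt array and 3.79 on the mock array.

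In the ABCA subfamily, whose proteins mostly move lipids, 5 of 6 genes past the filter were below 0, with a median of -0.31, and 6 of its 7 probe sets past the filter were below 0. ABCA3, which loads surfactant phospholipids into lamellar bodies of the lung, read 7.09 on the syk-wt array and 7.76 on the mock array, 1.59-fold lower from its 1 probe set. ABCA1, which hands cellular cholesterol to apolipoprotein A-I, read 6.53 on the syk-wt array and 6.93 on the mock array, a difference of -0.40. Its other probe set past the filter read 5.04 on the syk-wt array and 6.06 on the mock array, a difference of -1.02 that passes 2-fold. Both readings of ABCA1 were lower, by sizes that differ, and its other 2 probe sets lay below the floor on both arrays.

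ABCA2, a lysosomal lipid transporter, read 5.29 on the syk-wt array and 5.66 on the mock array, a difference of -0.36, and its other 2 probe sets lay below the floor on both arrays. ABCA7, a phospholipid transporter, read 5.35 on the syk-wt array and 5.62 on the mock array (-0.27). ABCA4, the retinoid transporter of photoreceptors, lay near the floor, at 4.84 on the syk-wt array and 4.96 on the mock array (-0.12). ABCA5 was the gene above 0, at 5.03 on the syk-wt array and 4.88 on the mock array (0.16), and its dim second probe set gave -0.19. ABCA6, ABCA8, ABCA9, ABCA12 and ABCA13 did not pass the filter. Of the ABCG sterol transporters, ABCG1, ABCG4, ABCG5 and ABCG8 did not pass it either.

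In the ABCB subfamily the 4 genes past the filter split evenly around 0, and 1 of them passed 2-fold. With the mean over probe sets all 4 were below 0. ABCB10, a transporter of the inner mitochondrial membrane needed for haem synthesis in red cell precursors, read 6.78 on the syk-wt array and 7.82 on the mock array, 2.06-fold lower. Only 3.29% of all genes past the filter had a lower difference. ABCB10 has 1 probe set, so no second reading of it was made. ABCB8, another mitochondrial member, stayed under the floor (4.68 on the syk-wt array and 4.74 on the mock array). ABCB6, a porphyrin transporter, read 5.99 on the syk-wt array and 5.75 on the mock array (0.24), but its second probe set gave -0.41. That second reading was dim, below the floor on both arrays (4.14 on the syk-wt array and 4.56 on the mock array). ABCB9, a lysosomal peptide transporter, differed by 0.04 (6.90 on the syk-wt array and 6.86 on the mock array), with its other probe sets at 0.08 and -0.15.

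The ABCD subfamily brings fatty acids into peroxisomes, except for ABCD4, which acts in lysosomal release of cobalamin. ABCD3, an abundant peroxisomal membrane protein, read 8.80 on the syk-wt array and 9.07 on the mock array (-0.27), whereas its second probe set gave 0.28. ABCD4 read 5.61 on the syk-wt array and 5.55 on the mock array (0.06). ABCD2 was dim on both arrays, with the same value of 2.40. The sulfonylurea receptor ABCC8, a regulatory subunit of potassium channels, was at 4.17 on the syk-wt array and 4.34 on the mock array, under the floor, and its relatives ABCC9, ABCC12 and ABCC13 did not pass the filter. The channel pores KCNJ8 and KCNJ11 that such receptors join did not pass it.

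ABCE1 and the ABCF proteins were higher on the syk-wt array in every reading. All 4 genes were above 0, against 50.8% of all genes past the filter. Their 9 probe sets all passed the filter and were all above 0, but they are repeat readings of 4 genes from the same RNA. ABCE1, which splits ribosomes into subunits after termination, read 9.78 on the syk-wt array and 8.98 on the mock array, 1.74-fold higher. Its second probe set gave 0.67, and 93.4% of all genes past the filter had a lower difference than the first. ABCF1, which takes part in translation initiation, read 10.06 on the syk-wt array and 9.59 on the mock array, 1.39-fold higher. ABCF3 read 7.74 on the syk-wt array and 7.30 on the mock array, 1.36-fold higher. For ABCF2 the brightest probe set gave the smallest difference of its 5, 0.17 (8.61 on the syk-wt array and 8.44 on the mock array), and the others gave 0.25, 0.26, 0.49 and 0.50. The ABCF2 probe set at 0.49 lay below the floor on both arrays (4.61 on the syk-wt array and 4.12 on the mock array). None of these genes passed 2-fold, and no replicate shows how far they would vary between cultures.

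**Figure D2:**
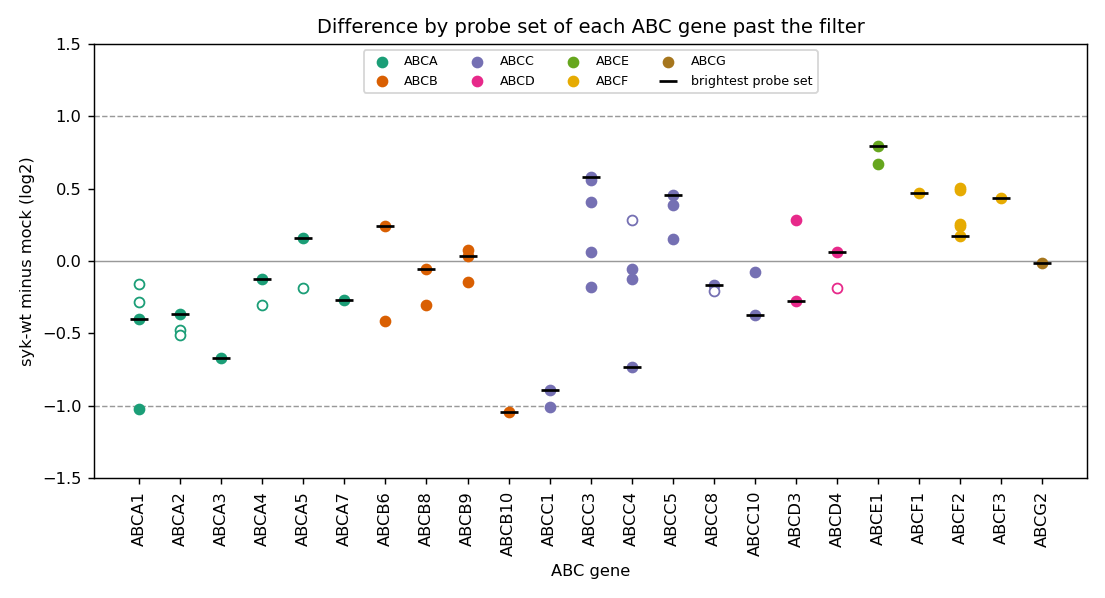
Difference syk-wt minus mock (log2, vertical axis) of every probe set of the 23 ABC genes past the filter, coloured by subfamily. Filled points passed the filter, open points did not, black bars mark the brightest probe set of each gene, and dashed lines mark 2-fold. All ABCE and ABCF points lie above 0, both ABCC1 points lie near -1, and probe sets of ABCB6, ABCC3 and ABCD3, among others, lie on both sides of 0.

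All readings of a gene come from the same RNA, so their spread is a partial guide to precision only. Over the 6028 genes with 2 or more probe sets past the filter, the pooled SD of the difference between probe sets of 1 gene was 0.35. It was 0.27 over the 12 such ABC genes. In 8 of those 12 (66.7%) all probe sets past the filter had the same sign, against 60.9% of all such genes. The exceptions were ABCB6, ABCB9, ABCC3 and ABCD3, and for ABCB6 the probe set below 0 lay below the floor on both arrays. An absolute difference above 0.35 was seen in 12 of 23 ABC genes (52.2%), against 44.3% of all genes past the filter. At the level of probe sets, 3 of 44 ABC probe sets past the filter were at least 2-fold different, those of ABCB10, ABCA1 and ABCC1 given above, against 6.81% of 23066 named probe sets. All 3 were lower, as were 3.48% of the named probe sets, and 0 were higher, against 3.33%.

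**Figure D3:**
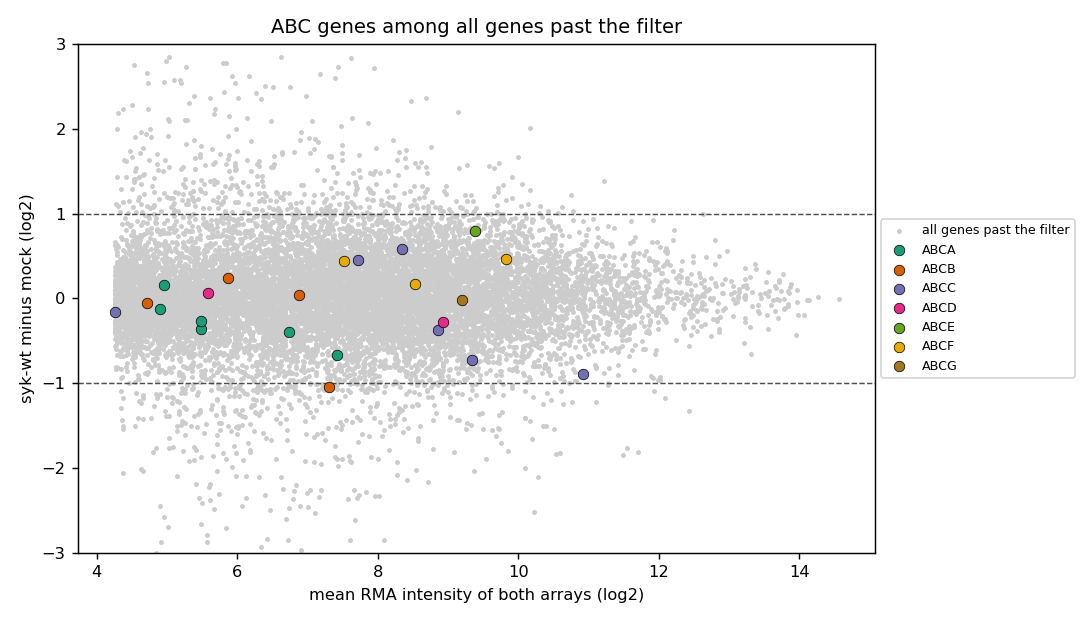
Difference syk-wt minus mock (log2, vertical axis) against the mean intensity of both arrays (log2, horizontal axis) for all 12814 genes past the filter (grey) and the 23 ABC genes (coloured by subfamily). Dashed lines mark 2-fold, and 46 genes beyond a log2 difference of 3 are not drawn. ABCB10 is the ABC gene past a dashed line, and the others lie between the lines.

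Genes that work beside ABC proteins were set next to them, from lists given here by their counts and medians. The lists were chosen with earlier results of these data known, so medians that lie close are no independent evidence. Ribosome recycling and initiation genes, the partners of ABCE1 and the ABCF proteins, had a median of 0.37 over 11 genes, against 0.45 for the 4 ABC ATPases and 0.01 over all genes. Of these 11, 8 were above 0, 2 were at least 2-fold higher (3.61% of all genes) and 0 at least 2-fold lower. PELO, which rescues stalled ribosomes together with ABCE1, was 2.13-fold higher, at 8.75 on the syk-wt array and 7.66 on the mock array. EIF2S1, the alpha subunit of initiation factor eIF2, was 2.04-fold higher by its brightest probe set, and its 3 probe sets ran from 0.53 to 1.03. By contrast, the gamma subunit gene EIF2S3 was lower by 0.64 on the log2 scale (9.17 on the syk-wt array and 9.81 on the mock array).

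The cholesterol efflux list, which also holds other cholesterol handling genes, had a median of -0.47 over 9 genes. Beside it, the 4 ABC genes past the filter that were listed as lipid exporters, ABCA1, ABCA3, ABCA4 and ABCA7, had a median of -0.33. ABCA2 (-0.36) and ABCA5 (0.16) were not on the exporter list, whereas ABCA4, the retinoid transporter near the floor, was. Of the 9, 3 were at least 2-fold lower (3.65% of all genes) and 8 were below 0. MYLIP was the gene above 0, at 0.84, and its 5 probe sets past the filter ran from -0.19 to 0.84. APOE, an apolipoprotein that accepts cholesterol, was 3.81-fold lower, at 6.65 on the syk-wt array and 8.58 on the mock array, and its 3 probe sets ran from -2.78 to -1.75. SCARB1, the receptor for high-density lipoprotein, was 3.13-fold lower. LIPA, the lysosomal acid lipase, was 2.83-fold lower. All 3 exceeded the largest difference among the ABC genes on the exporter list, that of ABCA3.

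Haem and iron-sulfur cluster genes, the setting of ABCB10, had a median of 0.01 over 16 genes, with 8 on each side of 0 and 0 at least 2-fold different. SLC25A37 (mitoferrin), the mitochondrial iron importer that ABCB10 binds in mouse red cell precursors, read 8.43 on the syk-wt array and 7.75 on the mock array, a difference of 0.68, but its 7 probe sets past the filter ran from -0.43 to 0.76. LYRM4, a partner of the cysteine desulfurase, differed by 0.79 and by 0.23 in its 2 probe sets past the filter. The haem synthesis enzyme UROS differed by -0.67, but its 3 probe sets ran from -0.67 to 0.57. The list had no common direction.

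Peroxisome genes had a median of -0.02 over 6 genes and cobalamin genes -0.12 over 7, with 0 at least 2-fold different in either. The thiolase ACAA1 differed by -0.84, the peroxisome membrane assembly factors PEX3 and PEX19 by 0.80 and 0.32, with their other probe sets past the filter at 0.23 and -0.09. In the cobalamin list MMACHC differed by 0.85, MTRR by 0.61 and LMBRD1, the lysosomal partner of ABCD4, by -0.44. Transcription factors that control ABC genes had a median of -0.14 over 10 genes, 8 of them below 0 and 0 at least 2-fold different. With the mean over probe sets 5 were below 0 and 5 above. The nuclear receptors RXRA and PPARG differed by -0.70 and -0.69, and the other RXRA probe set past the filter by -0.08. NR1H3 (LXR alpha), which induces ABCA1 when oxysterols bind it, differed by 0.45, with 5.60 on the syk-wt array and 5.15 on the mock array. ABCA1 had the opposite sign to NR1H3 and the same sign as RXRA, and a link between them was not tested. The listed factors NR1H2, NR1H4 and NR1I2 were not read here. ABC proteins with other symbols showed small differences: the peptide transporter subunits TAP1 and TAP2 differed by -0.16 and 0.28, and the chloride channel CFTR was below the floor on both arrays. The 3 TAP2 probe sets past the filter ran from -0.17 to 0.28, and with the mean over probe sets both TAP genes were below 0.

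**Figure D4:**
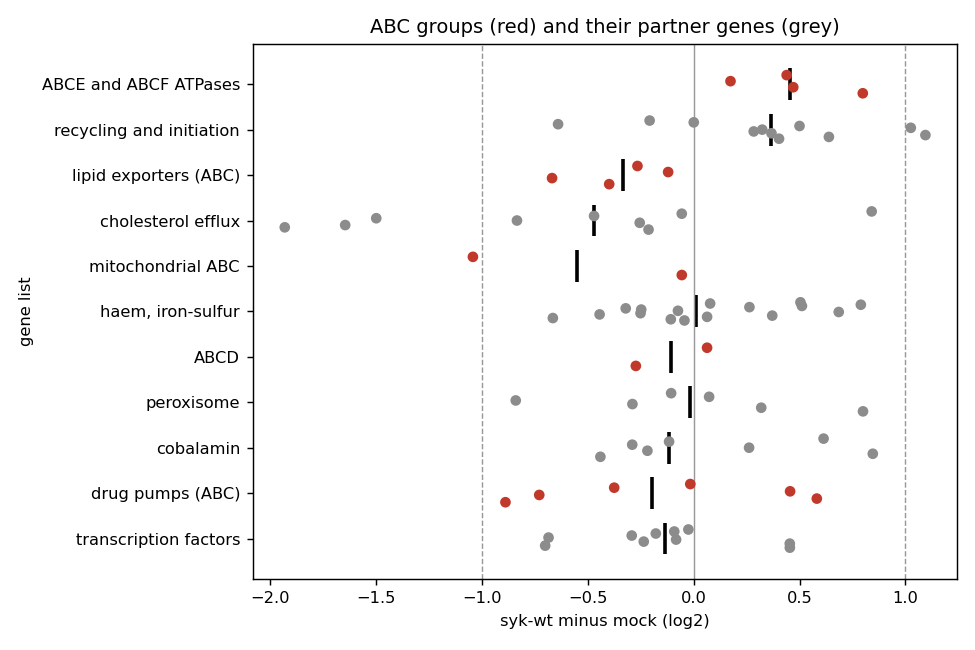
Difference syk-wt minus mock (log2, horizontal axis) of each gene past the filter in ABC groups (red) and in the lists of their partner genes (grey), with black bars for medians and dashed lines at 2-fold. The ABCE and ABCF ATPases and the recycling and initiation genes have medians of 0.45 and 0.37. The ABC genes listed as lipid exporters and the cholesterol efflux genes have medians of -0.33 and -0.47. The lists were chosen with earlier results of these data known.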

How the data were processed

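For each of 54675 probe sets the deposited table gives a value on each array. Per the submitters' processing notes the authors used RMA (background subtraction, quantile alignment of arrays and summary of the probes of each set), with no version or settings given. The deposited values were taken as log2 intensities, since they run from 2.14 to 14.6. RMA compresses differences of dim probe sets. No column was left unused.

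Gene names came from the platform annotation: 41097 had 1 symbol, of which 41043 matched a RefSeq gene ID and 0 were renamed, 1801 had several and 11777 were not named here. A gene took its probe set with the highest mean, passed at a mean of 4.25 or more, and was counted as different at 2-fold or 1.5-fold. Drug pumps and all members past the filter are named, as are up to 3 genes of each partner list with the largest absolute difference. The members and lists were chosen with earlier results of these data known. With 1 array per group no test was possible, and the number of arrays limits the precision. The calculation was run on simulated data with planted changes larger than any ABC difference here, so it does not bear on differences of this size. Alternatives were median centring, a loess trend (span 0.2), the mean or median over probe sets, probe sets ending in _at alone, other filters and a floor at the highest bacterial control. A planned count of cassette motifs per protein was not made, because no protein sequences were used here. Python 3.11.15, pandas 2.3.3, numpy 2.4.6 and statsmodels 0.14.6 were used.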

Additional observations from a re-analysis of the deposited data

How the results depend on the processing

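ABCB10 was past 2-fold under every alternative run but probe sets ending in _at alone, which removes its probe set. That setting gave 0 ABC genes past 2-fold (of 15), 3 past 1.5-fold and 0 ABC probe sets past 2-fold, a median of -0.45 for ABCC and 0.14 for haem and iron-sulfur genes, and it turned ABCC3 to -0.18. The drug pump median was -0.052 with the median over probe sets and 0.034 without a filter, where 4 dim pumps enter. Without a filter the ABCA median was -0.12 and the ABCC median 0.084. With the filter at the 75th percentile the medians were -0.53 for ABCA (2 genes), -0.50 for ABCB (2 genes) and -0.83 for cholesterol efflux. Alternatives chosen after seeing the data gave a cholesterol efflux median of -0.65 without genes at or below the floor on both arrays, and 2 ABC genes past 2-fold when pseudogene symbols ending in P were let in. Averaging all its probe sets put ABCC4 at -0.16, and their median at -0.09. Of the 23 genes, 16 kept their sign under all alternatives run for them, or came to 0 with the floor. The 7 whose sign turned under at least 1 were ABCA5, ABCB6, ABCB9, ABCC3, ABCD3, ABCD4 and ABCG2. The cause of these changes was not tested, except where the setting removes or adds the genes named. No paired analysis was possible because each group has 1 array.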

Other observations

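Of the ABC pseudogene symbols that the member rule leaves out, 2 passed the filter, and both were higher on the syk-wt array. They were chosen after their values were seen. ABCA17P read 6.75 on the syk-wt array and 4.58 on the mock array, so it was at least 3.96-fold higher against the floor. It lies on chromosome 16 close to ABCA3, with 1 gene between them in RefSeq order (GRCh38.p14), and ABCA3 was lower by 0.67 on the log2 scale. ABCA11P read 6.35 on the syk-wt array and 5.41 on the mock array, a difference of 0.94. Each was read by 1 probe set. The third, ABCC6P1, did not pass the filter.

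Both arrays held exactly the same value for 2189 of the 54675 probe sets, among them 2 of the 96 ABC probe sets, of which the ABCD2 probe set is 1. Of the 12814 genes past the filter, 184 had the same value on both arrays, and 0 of the 23 ABC genes did.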
